A study of Mus musculus with 6 samples.

Results

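The dystrophin-glycoprotein complex genes examined here were 8 genes named by symbol, Dmd, Utrn, Dtna, Dag1, Sgca, Sgcb, Sgcd and Lama2, out of 55401 gene identifiers in the count table. All 8 were found and all 8 passed the filter on low counts, so none was set aside. The rule names them by the proteins they encode and uses no measured value, but the list was drawn up with earlier results of these data known. The wording of the rule also speaks of syntrophin, but the list of symbols holds the dystrobrevin gene Dtna and no syntrophin gene, so the syntrophins were described with the other genes of the complex. RNA-seq was performed on tibialis anterior (TA) muscle of C57BL/6 mice of the iMSBmal1-/- line, in which the human skeletal actin promoter drives a tamoxifen-activated Cre (HSA-MCM) that deletes the clock gene Bmal1 in skeletal muscle fibres, while other cells of the muscle keep the gene. All 6 samples carried the deletion and all mice received tamoxifen, at 2 mg per day for 5 days from an age of 12 to 16 weeks. The TA was injected 4 weeks later with adeno-associated virus carrying GFP (AAV-GFP, n = 3) or mouse Rbm20 with an HA tag under the CMV promoter (AAV-RBM20, n = 3), and was collected after another 4 weeks. The dose of vector was larger for RBM20 than for GFP, so the transgene and its dose cannot be told apart. No sample with intact Bmal1 and none without a virus was analysed here.

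Dystrophin is the long rod that ties the actin cytoskeleton below the fibre membrane to a cluster of membrane proteins, and through them to laminin in the basement membrane. Dystroglycan is the laminin receptor at the centre of that cluster, the sarcoglycans steady it in the membrane, dystrobrevin and the syntrophins join it to signalling proteins inside the fibre, and laminin alpha2 is its main partner outside. Utrophin is the autosomal relative of dystrophin, found in adult muscle mainly at the neuromuscular and myotendinous junctions and in vessels. Loss of single members causes muscular dystrophy, with Dmd behind Duchenne dystrophy, the sarcoglycan genes behind limb-girdle forms and Lama2 behind a congenital form.

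The start regions of 4 members are shown because Dmd and Utrn encode the pair of related rods and because Sgcd and Lama2 were the members with the lowest p-values between the vectors. Each is a RefSeq promoter on GRCm38.p6, 250 bases before to 50 bases after a transcription start, read 5′ to 3′ on the strand of the gene. RefSeq entries were found for 7 of the 8 members. Dmd has 2 entries, of which the one further upstream is shown. The windows of Utrn, Sgcd and Lama2 lie within the annotated span of the gene, downstream of its outermost 5′ end. Those ends are at 12869365 for Utrn, 47988969 for Sgcd and 27619758 for Lama2. These windows therefore describe starts inside the gene and not its outermost one. Capitals mark the E-box CANNTG and the CArG box, the site class of serum response factor.
Dmd, chrX:82948620-82948919, plus strand: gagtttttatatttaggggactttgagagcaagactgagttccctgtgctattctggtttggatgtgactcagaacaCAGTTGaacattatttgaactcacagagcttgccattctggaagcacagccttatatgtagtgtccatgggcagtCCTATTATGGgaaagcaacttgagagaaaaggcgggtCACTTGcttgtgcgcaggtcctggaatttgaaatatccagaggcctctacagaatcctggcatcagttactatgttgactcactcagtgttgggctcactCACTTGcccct
Utrn, chr10:12861686-12861985, minus strand: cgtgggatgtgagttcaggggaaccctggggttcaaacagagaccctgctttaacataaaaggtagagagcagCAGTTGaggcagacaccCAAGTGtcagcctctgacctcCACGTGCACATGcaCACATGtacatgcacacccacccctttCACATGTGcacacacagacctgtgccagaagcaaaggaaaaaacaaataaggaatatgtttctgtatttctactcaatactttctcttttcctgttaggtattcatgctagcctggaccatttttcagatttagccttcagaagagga
Sgcd, chr11:47379276-47379575, minus strand: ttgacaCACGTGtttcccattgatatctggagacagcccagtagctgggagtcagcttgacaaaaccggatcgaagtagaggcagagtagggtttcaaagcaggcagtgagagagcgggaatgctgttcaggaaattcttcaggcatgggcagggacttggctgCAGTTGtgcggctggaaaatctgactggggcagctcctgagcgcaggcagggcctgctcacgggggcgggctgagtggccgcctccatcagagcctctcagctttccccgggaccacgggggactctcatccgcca
Lama2, chr10:27616893-27617192, minus strand: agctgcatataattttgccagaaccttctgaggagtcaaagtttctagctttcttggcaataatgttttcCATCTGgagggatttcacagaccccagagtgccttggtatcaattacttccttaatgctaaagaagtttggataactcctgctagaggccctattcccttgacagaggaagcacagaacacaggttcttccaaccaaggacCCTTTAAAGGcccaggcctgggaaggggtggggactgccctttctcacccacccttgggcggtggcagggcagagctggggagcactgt
The E-box class read by myogenic factors, CANNTG, occurred 3 times in the Dmd window shown, 7 times in that of Utrn, 2 times in that of Sgcd and 1 time in that of Lama2. It was present in 72.3% of all 32851 promoters of the same length. The form CACGTG, read by BMAL1 with its partner CLOCK, is one of the CANNTG sites and occurred 1 time in the Utrn window, 139 bases before the start, and 1 time in the Sgcd window, 244 bases before the start, against 7.15% of all promoters. A CArG box lay 98 bases before the Dmd start and 39 bases before the Lama2 start, against 1.63% of all promoters. The other Dmd window, on the plus strand of chromosome X from 85048045 to 85048344, held 0 matches to CANNTG and 0 to the CArG box. Both strands were searched, and each match describes letters in a window only.

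The 6 libraries held 41400132 to 54226618 counts. Replicate 3 of each group stood apart from replicates 1 and 2. In these 2 libraries Ttn, the titin gene, took 4.48% and 9.05% of the counts against 16.9% to 17.8% in the other 4, and mitochondrially encoded genes took 11.4% to 12.5% against 6.41% to 7.66%. The log2 fold change of each member is therefore also given without both libraries of replicate 3. The 8 members together took 0.131% to 0.165% of the counts, with 2055 to 28073 counts per gene and library. Rbm20 was 166 ± 3.20 CPM (counts scaled to a common library size) with AAV-GFP and 484 ± 71.0 CPM with AAV-RBM20 (SD, n = 3 each), and the 2 groups did not overlap (log2 fold change 1.54 ± 0.15, SE; edgeR, adjusted p = 0.12; 0.011 with the replicate block). Bmal1, deleted in the fibres of all samples, was 35.0 ± 3.63 and 26.3 ± 1.63 CPM (log2 fold change -0.41; edgeR, adjusted p = 0.62). The 10 fibre markers used to check the tissue, among them Acta1, Ckm and Myh4, were present in every library. Their summed level was 99527 to 108870 CPM with AAV-GFP and 65243 to 94823 CPM with AAV-RBM20, without overlap. Of the 10, 4 (Tnnt3, Tnni2, Actn3 and Pvalb) were lower with no overlap, where 16.8% of all genes tested did not overlap. Another 3 went the other way, Myh1, Myh2 and Mb, at log2 fold changes of 0.42, 0.76 and 0.27, and overlapped. The edgeR test called 0 of the 10. DESeq2 with the replicate block called 4, namely Tnnt3, Tnni2, Actn3 and Myh4, which overlapped, but not Pvalb. Most of the members are made by these fibres. In whole muscle, fewer cells of a type and less RNA per cell cannot be told apart, and the part of the fibre marker difference in the values below was not tested.

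None of the 8 members differed between AAV-RBM20 and AAV-GFP past an adjusted p of 0.05. In the edgeR quasi-likelihood test with Benjamini-Hochberg adjustment over 17222 genes, adjusted p-values of the members began at 0.66. Over all genes tested the same test called 0 genes, or 0%, while 1360 genes (7.90%) had an unadjusted p under 0.05, none of them a member. DESeq2 and limma-voom also called 0 members, although DESeq2 called 72 genes. In 0 of the 8 members did the CPM ranges of the 2 groups stay apart, against 16.8% of all genes tested. The difference between group means exceeded both SDs in 2 members, Sgcd, which was lower with AAV-RBM20, and Lama2, which was higher. Fitting the replicate number as a block moved the count at an unadjusted p under 0.05 from 0 to 2 members, these same 2, where 18.8% of all genes tested had such a p, and it called 0 members and 25 genes (0.145%) past an adjusted p of 0.05. The median log2 fold change of the members was 0.02, beside 0.01 over all genes tested.

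**Figure D1:**
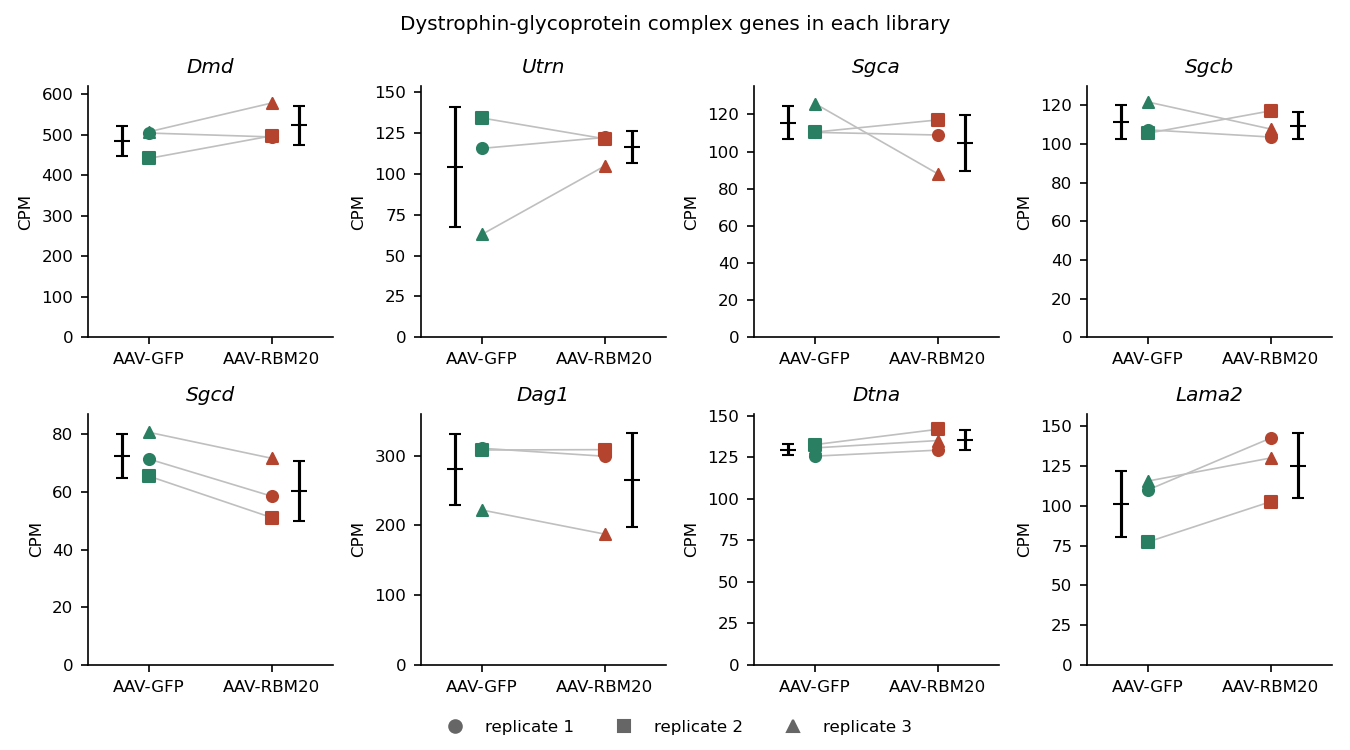
Level of each member in each library in CPM, with the axis starting at 0. Points are libraries, grey lines join libraries with the same replicate number, and black bars give the mean ± SD of each group of 3. The 2 groups overlap in each of the 8 panels, all 3 lines go down in Sgcd, and all 3 go up in Dtna and Lama2.

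Among the proteins inside the membrane, dystrophin itself had the highest counts. Dmd (ENSMUSG00000045103, GRCm38 chromosome X, 82948870 to 85206141, plus strand, 84 merged exons) was 504, 441 and 507 CPM in AAV-GFP replicates 1, 2 and 3 and 494, 497 and 578 CPM in AAV-RBM20 replicates 1, 2 and 3. The groups overlapped, with AAV-RBM20 replicate 3 as the highest library and AAV-GFP replicate 2 as the lowest. The group means were 484 ± 37.1 and 523 ± 47.6 CPM (SD, n = 3), and the log2 fold change was 0.11 with a 95% interval of -0.21 to 0.43 (edgeR, adjusted p = 0.82). Without both libraries of replicate 3 it was 0.08. Dmd spans 2257272 bases and has 23.801 kb of merged exons. After the trend of level over merged exonic length was removed in each library, its log2 fold change was -0.03. Its sign thus depended on that step.

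Utrn, for utrophin (ENSMUSG00000019820, chromosome 10, 12382188 to 12869365, minus strand, 80 merged exons), had the widest spread of the members. It was 116, 134 and 63.0 CPM in AAV-GFP replicates 1 to 3 and 122, 121 and 105 CPM in AAV-RBM20 replicates 1 to 3. AAV-GFP replicate 3 lay far below the other 5 libraries, and the 3 AAV-RBM20 values lay within the range of the AAV-GFP values. The log2 fold change was 0.16 with a 95% interval of -0.44 to 0.75 (edgeR, adjusted p = 0.87). One library set its sign, since it was -0.11 without AAV-GFP replicate 3 and -0.03 without both libraries of replicate 3. The 8 endothelial markers, genes of the vessel lining where utrophin is also made, moved with this spread. Their summed level was 464, 526 and 223 CPM in the AAV-GFP libraries and 482, 457 and 344 CPM in the AAV-RBM20 libraries, so replicate 3 was the lowest of its group for both measures. A low AAV-GFP replicate 3 was not particular to vessel genes. Among genes that fasten sarcomeres to the membrane, Plec, Flnc and Actn2 were also lowest there, at 1105, 558 and 339 CPM. Des, Synm and Actn3 were instead highest there. The part of the endothelial markers in the Utrn spread was not tested.

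Dtna, for alpha-dystrobrevin (ENSMUSG00000024302, chromosome 18, 23415135 to 23659715, plus strand, 30 merged exons), varied least. It was 126, 133 and 131 CPM in AAV-GFP replicates 1 to 3 and 129, 142 and 135 CPM in AAV-RBM20 replicates 1 to 3. It was higher with AAV-RBM20 in all 3 same-numbered pairs, yet the groups overlapped. The log2 fold change was 0.06 with a 95% interval of -0.20 to 0.33 (edgeR, adjusted p = 0.88). It was 0.08 without both libraries of replicate 3 and -0.05 with the length trend removed. The antisense gene Gm47898 shares 90 exonic bases with Dtna, and the strand setting of the counting was not given, so a small part of the Dtna counts could belong to it.

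Of the membrane proteins, dystroglycan gives the receptor for laminin and the sarcoglycans its companions. Dag1, for dystroglycan (ENSMUSG00000039952, chromosome 9, 108204634 to 108263958, minus strand, 5 merged exons), was 310, 308 and 222 CPM in AAV-GFP replicates 1 to 3 and 299, 308 and 187 CPM in AAV-RBM20 replicates 1 to 3. Replicate 3 was the lowest library of each group and replicates 1 and 2 of both groups lay close together. The log2 fold change was -0.08 with a 95% interval of -0.60 to 0.44 (edgeR, adjusted p = 0.93). It was -0.02 without both libraries of replicate 3 and 0.13 without AAV-RBM20 replicate 3 alone. Dag1 was the only member with no overlapping gene in the annotation.

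Sgca, for alpha-sarcoglycan (ENSMUSG00000001508, chromosome 11, 94962791 to 94976327, minus strand, 11 merged exons), was 110, 110 and 126 CPM with AAV-GFP and 109, 117 and 88.0 CPM with AAV-RBM20, in the order of replicates 1 to 3. Replicate 3 was the highest library of AAV-GFP and the lowest of AAV-RBM20, and the other 4 lay between. The log2 fold change was -0.14 with a 95% interval of -0.48 to 0.20 (edgeR, adjusted p = 0.78), and it was 0.04 without both libraries of replicate 3. Sgcb, for beta-sarcoglycan (ENSMUSG00000029156, chromosome 5, 73632749 to 73647790, minus strand, 6 merged exons), was 107, 106 and 122 CPM with AAV-GFP and 104, 117 and 108 CPM with AAV-RBM20. Its groups lay on top of each other, with a log2 fold change of -0.03 and a 95% interval of -0.32 to 0.26 (edgeR, adjusted p = 0.96). It was 0.06 without both libraries of replicate 3, 0.02 with upper quartile factors and 0.00054 with a filter at 1 CPM, so no direction can be given for Sgcb.

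Sgcd, for delta-sarcoglycan (ENSMUSG00000020354, chromosome 11, 46896253 to 47988969, minus strand, 12 merged exons), was 71.4, 65.5 and 80.7 CPM in AAV-GFP replicates 1 to 3 and 58.5, 51.1 and 71.7 CPM in AAV-RBM20 replicates 1 to 3. It was lower with AAV-RBM20 in 3 of 3 same-numbered pairs, although AAV-RBM20 replicate 3 reached above 2 of the AAV-GFP libraries. The group means were 72.5 ± 7.68 and 60.5 ± 10.4 CPM (SD, n = 3), 0.834-fold, and the log2 fold change was -0.26 with a 95% interval of -0.63 to 0.11 (edgeR, adjusted p = 0.66). With the replicate block it was -0.27 with a 95% interval of -0.48 to -0.07, an unadjusted p of 0.016 and an adjusted p of 0.19 in edgeR. Without both libraries of replicate 3 it was -0.31 (edgeR, adjusted p = 0.059). The exact permutation test, two-sided and on log2 CPM, gave p = 0.3, where 0.1 is the smallest p that 3 against 3 samples can give.

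Outside the fibre, Lama2 encodes the alpha2 chain of the laminin that dystroglycan binds (ENSMUSG00000019899, chromosome 10, 26980036 to 27619758, minus strand, 66 merged exons). It was 110, 77.4 and 116 CPM in AAV-GFP replicates 1 to 3 and 143, 103 and 130 CPM in AAV-RBM20 replicates 1 to 3. It was higher with AAV-RBM20 in 3 of 3 same-numbered pairs, and replicate 2 was the lowest library of each group. The group means were 101 ± 20.7 and 125 ± 20.4 CPM (SD, n = 3), 1.24-fold, and the log2 fold change was 0.31 with a 95% interval of -0.14 to 0.76 (edgeR, adjusted p = 0.67). With the replicate block it was 0.32 with a 95% interval of 0.10 to 0.53, an unadjusted p of 0.0099 and an adjusted p of 0.16 in edgeR. The two-sided exact permutation test gave p = 0.3. Without AAV-GFP replicate 2, the lowest library, the log2 fold change was 0.14, and without both libraries of replicate 3 it was 0.40. With the length trend removed it was 0.19 (edgeR, adjusted p = 0.81), and 0.21 with the replicate block added (edgeR, adjusted p = 0.32). In that last fit no member higher with AAV-RBM20 had an unadjusted p under 0.05.

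Lama2 is also made by fibro-adipogenic progenitors, the matrix-producing cells between fibres, and their markers differed in level between libraries. All 10 had a log2 fold change above 0, with a median of 0.31, though edgeR called 0 with or without the block, where 1 and 4 had an unadjusted p under 0.05. DESeq2 with the block called 2 of them higher, the type I collagen genes Col1a1 (adjusted p = 0.00032) and Col1a2 (adjusted p = 0.0052). Their summed level was 724, 684 and 1378 CPM in the AAV-GFP libraries and 1327, 1107 and 1497 CPM in the AAV-RBM20 libraries, and the groups overlapped through AAV-GFP replicate 3. Their part in the Lama2 values was not tested. Lama2 shares 631 exonic bases with the antisense gene Gm48084, so its counts are uncertain to that extent.

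**Figure D2:**
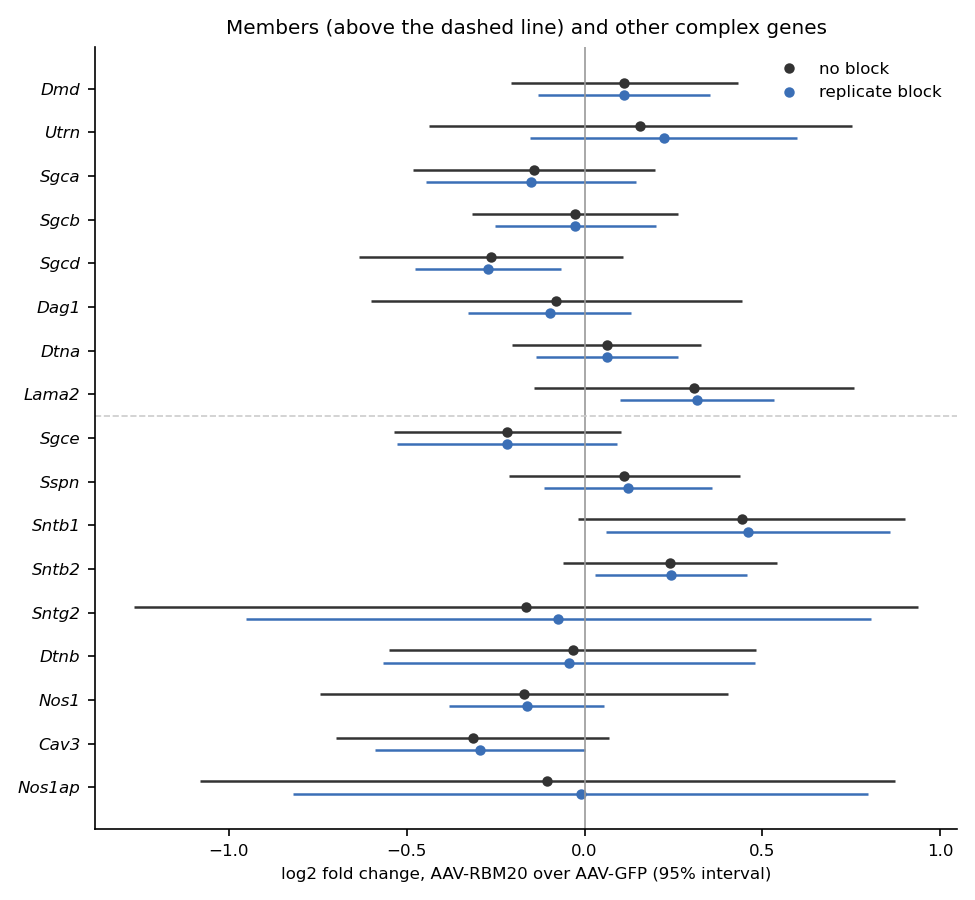
The log2 fold change of each of the 8 members (above the dashed line) and of 9 other complex genes tested, on the horizontal axis, with 95% intervals from edgeR without (dark) and with (blue) the replicate block. Each dark interval crosses 0, and the blue intervals of Sgcd, Lama2, Sntb1 and Sntb2 lie to one side of it.

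Divided by the merged exonic length, which is 23.801 kb for Dmd and 1.735 kb for Sgca, the members fell into an upper and a lower group. Over the 6 libraries the mean level was 63.4 CPM per kb for Sgca, 42.9 for Dag1, 27.3 for Sgcb and 21.2 for Dmd. The lower 4 were Sgcd at 8.05, Dtna at 7.83, Lama2 at 6.92 and Utrn at 6.44 CPM per kb. The upper 4 kept this order in 6 of 6 libraries, although the ranges of Dag1 and Sgcb over all libraries overlapped. Each of the upper 4 lay above all of the lower 4 in every library, while the lower 4 overlapped and were not set apart by their spread. Utrn per length was thus below Dmd in all 6 libraries. Merged exonic length counts every annotated isoform, so genes with many short isoforms are placed too low on this scale.

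**Figure D3:**
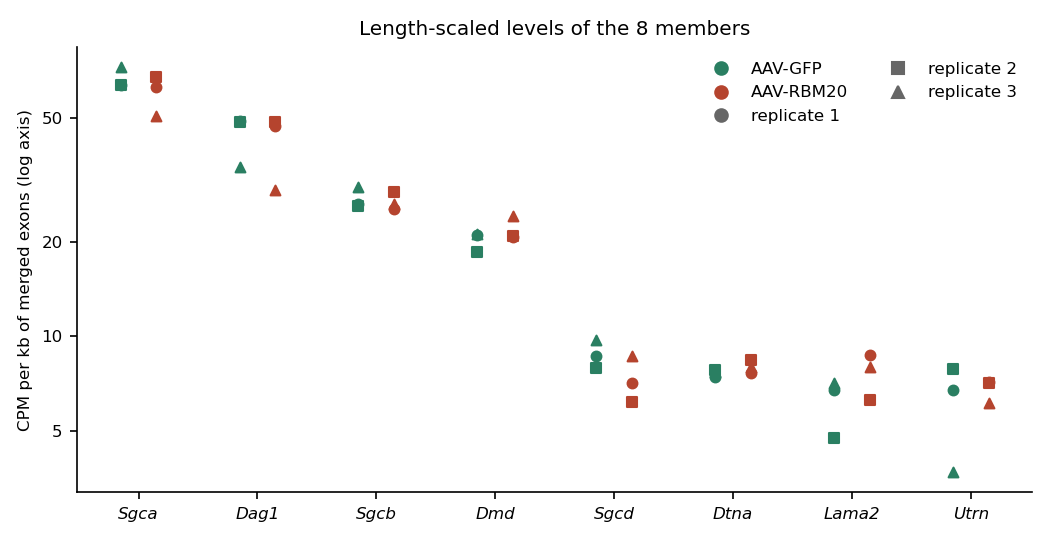
CPM per kb of merged exons of the 8 members on a log axis, with 1 point per library (green AAV-GFP, red AAV-RBM20, shape for replicate number), ordered by mean level. Sgca, Dag1, Sgcb and Dmd lie between 18.5 and 72.5 CPM per kb, and Sgcd, Dtna, Lama2 and Utrn lie between 3.68 and 9.77.

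The ratio of Utrn to Dmd counts, which no scaling of libraries can move, was 0.229, 0.304 and 0.124 in AAV-GFP replicates 1 to 3 and 0.247, 0.244 and 0.181 in AAV-RBM20 replicates 1 to 3. The groups overlapped, and the difference of the mean log2 ratio was 0.11 (two-sided exact permutation test, p = 0.8, n = 3 against 3). It turned to -0.25 without AAV-GFP replicate 3. The same ratio was then taken for the other 6 members, chosen after the data had been seen, and 7 ratios were compared in all. Only that of Sgcd to Dmd kept the groups apart, at 0.142, 0.148 and 0.159 with AAV-GFP and 0.118, 0.103 and 0.124 with AAV-RBM20. Its difference on the log2 scale was -0.38, lower in 3 of 3 pairs, with the smallest exact permutation p these samples allow, 0.1, and an adjusted p of 0.7 over the 7 ratios. The remaining ratios overlapped between groups.

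**Figure D4:**
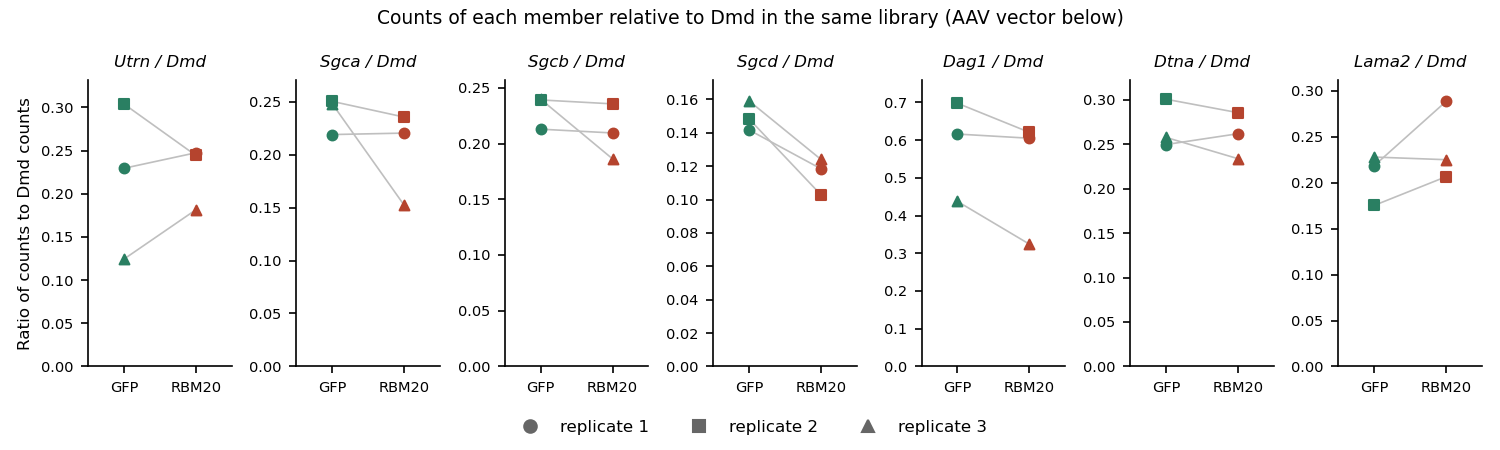
Ratio of the counts of each member to those of Dmd in the same library, on axes starting at 0, for AAV-GFP (left) and AAV-RBM20 (right) libraries joined by replicate number. The 3 AAV-RBM20 points lie below the 3 AAV-GFP points for Sgcd, and the points of the other 6 members overlap.

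Members differed in how they varied from library to library within a group. Measured as log2 CPM of replicate 3 minus the mean of replicates 1 and 2, Dag1 was at -0.48 in AAV-GFP and -0.70 in AAV-RBM20, and Utrn was at -0.98 and -0.22. Sgcd was at 0.24 and 0.39 and Dmd at 0.10 and 0.22, while Sgca differed in sign between the groups, at 0.19 and -0.36. The median over all genes tested was 0.04 and 0.01. Over the 6 libraries the log2 CPM of a member ranged by 0.17 for Dtna, 0.23 for Sgcb, 0.88 for Lama2 and 1.09 for Utrn. The genes whose library profile came closest to that of Dmd, by the root mean square difference of centred log2 CPM over 6 libraries and 11554 genes, were Lix1l at 0.028, Mtcp1 at 0.028 and Erbin at 0.029. For Utrn they were Syne2 at 0.029, Prdm16 at 0.045 and Fbxl12 at 0.047.

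**Figure D5:**
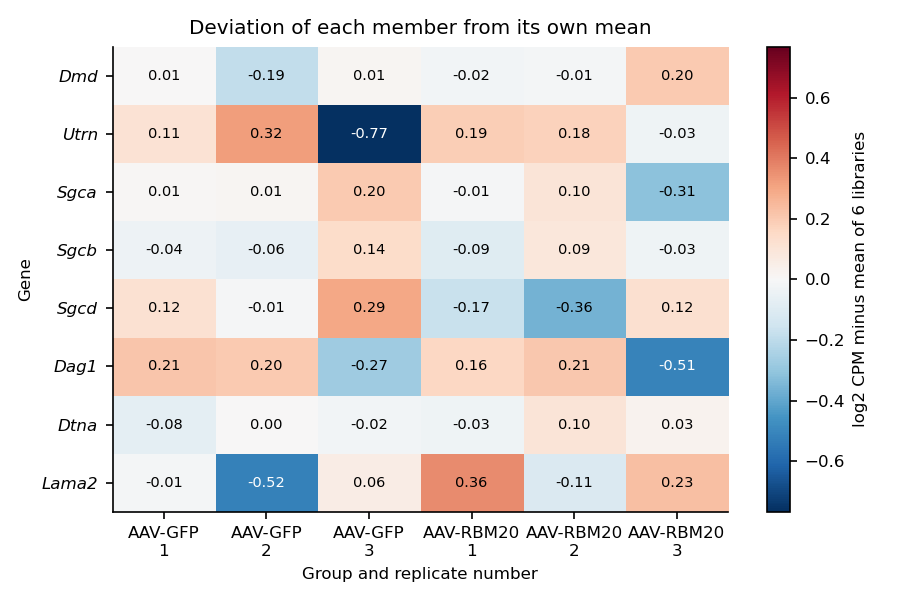
Deviation of each member from its own mean over the 6 libraries in log2 CPM, with 1 column per library and red for higher, blue for lower. The most negative cell is Utrn in AAV-GFP replicate 3 at -0.77, and Dag1 is below its mean in replicate 3 of both groups.

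The rest of the complex is described from a list of the other known members. Of 13 listed genes 11 were tested. In edgeR with or without the block and in DESeq2 the adjusted p was under 0.05 for 0 of them, and an unadjusted p under 0.05 was found for 0 without the block and for 2, Sntb1 and Sntb2, with it. The groups did not overlap for 3 of the 11, Sgce, Sntb1 and Cav3, and the median log2 fold change was -0.03. Over all genes tested 18.8% had an unadjusted p under 0.05 in edgeR with the block, and 16.8% did not overlap. Sarcospan (Sspn), a small membrane protein bound to the sarcoglycans, was 80.3 ± 12.3 and 86.8 ± 1.88 CPM (SD, n = 3) with a log2 fold change of 0.11. Epsilon-sarcoglycan (Sgce), the broadly expressed relative of Sgca, was low and without overlap, at 6.37 ± 0.113 CPM with AAV-GFP and 5.48 ± 0.252 CPM with AAV-RBM20. Its log2 fold change was -0.22 (edgeR, adjusted p = 0.67). Zeta-sarcoglycan (Sgcz) had 0 counts in all libraries and Sntg1 had 1 count in a single AAV-GFP library.

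The syntrophins, adaptors that bind dystrophin and dystrobrevin, differed in level. Sntb1 was 4.15 ± 0.930 CPM with AAV-GFP and 5.65 ± 0.440 CPM with AAV-RBM20 (SD, n = 3), without overlap, and its log2 fold change was 0.44 with a 95% interval of -0.02 to 0.90 (edgeR, adjusted p = 0.64; 0.22 with the block). Sntb2 was 18.4 ± 1.86 and 21.8 ± 1.60 CPM with a log2 fold change of 0.24 (edgeR, adjusted p = 0.66; 0.23 with the block). Sntg2 was under 2 CPM in every library, as was Nos1ap, the adaptor of neuronal nitric oxide synthase. Beta-dystrobrevin (Dtnb) was 2.34 ± 0.155 and 2.29 ± 0.404 CPM.

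Neuronal nitric oxide synthase (Nos1), held at the membrane by the complex in fast fibres, was 338, 317 and 199 CPM with AAV-GFP and 304, 267 and 188 CPM with AAV-RBM20. Replicate 3 was the lowest library of each group, as for Dag1. Its log2 fold change was -0.17 with a 95% interval of -0.74 to 0.40 (edgeR, adjusted p = 0.85). Caveolin-3 (Cav3), the muscle caveolin that binds dystroglycan, was 26.8 ± 5.95 CPM with AAV-GFP and 21.6 ± 0.112 CPM with AAV-RBM20 without overlap (log2 fold change -0.31; edgeR, adjusted p = 0.66).

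Other gene groups around the complex were described by counts and medians, with no test of the group. Beside their counts, 7.90% of all genes tested had an unadjusted p under 0.05 in edgeR without the block and 18.8% with it. The groups did not overlap for 16.8% of all genes tested. Of 17 listed enzymes that build the laminin-binding sugar on dystroglycan 16 were tested and B4gat1 had 0 counts in all libraries. None passed an adjusted p of 0.05 in edgeR or DESeq2. An unadjusted p under 0.05 was found for 1 without the block and for 4 with it, each lower with AAV-RBM20, and the median log2 fold change was -0.07. The dolichol kinase gene Dolk was 22.3 ± 3.77 and 18.1 ± 0.639 CPM (SD, n = 3) with a log2 fold change of -0.31. The mannose donor synthase gene Dpm3 was 3.57 ± 0.756 and 2.32 ± 0.152 CPM with a log2 fold change of -0.62. Neither overlapped between groups, and their adjusted p was 0.64 and 0.62 in edgeR.

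Of 20 listed laminin and basement membrane genes, 19 were tested and 18 of these had a log2 fold change above 0, with a median of 0.28. None passed an adjusted p of 0.05 in edgeR. An unadjusted p under 0.05 was found for 2 higher and 1 lower without the block and for 6 higher and 1 lower with it. Lama4, the laminin chain of vessels, was 37.8 ± 3.35 and 48.1 ± 4.39 CPM (SD, n = 3) with a log2 fold change of 0.35 (edgeR, adjusted p = 0.62). Lamc3, a minor gamma chain, was 2.73, 3.76 and 4.60 CPM with AAV-GFP and 1.69, 1.87 and 1.36 CPM with AAV-RBM20, without overlap, at a log2 fold change of -1.18 (edgeR, adjusted p = 0.57). It was the single gene of the list past an adjusted p of 0.05 in DESeq2. All 10 fibro-adipogenic and 11 of 12 macrophage markers also had a log2 fold change above 0. The summed level of the laminin and basement membrane genes was lowest in replicate 3 of each group, at 1426 CPM in both. Single genes of the list differed in this. Hspg2 was 699, 633 and 324 CPM in AAV-GFP replicates 1 to 3, and Col6a1 was 47.6, 40.2 and 77.2 CPM. The macrophage markers summed to 36.8 to 130 CPM with AAV-GFP and 81.0 to 190 CPM with AAV-RBM20. This sum was highest in replicate 3 of each group, as was that of the fibro-adipogenic markers. The part of these markers in the values of the list was not tested.

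The integrin anchor is the other laminin link of the fibre. Of its 15 genes 0 passed an adjusted p of 0.05 in edgeR, with or without the block, 2 had an unadjusted p under 0.05 without it, and the median log2 fold change was 0.05. Lims1, an adaptor of integrin-linked kinase, was 49.0, 46.6 and 51.2 CPM with AAV-GFP and 81.2, 71.4 and 74.5 CPM with AAV-RBM20, well apart, at a log2 fold change of 0.63 (edgeR, adjusted p = 0.50; 0.060 with the block). It was past an adjusted p of 0.05 in DESeq2. Zyxin (Zyx) was at 0.40 and kindlin-2 (Fermt2) at -0.30 on the log2 fold change scale, both without overlap.

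Among 15 costamere filaments and linkers, which fasten sarcomeres to the membrane, 0 passed an adjusted p of 0.05 in edgeR or DESeq2, 4 had an unadjusted p under 0.05, and the median log2 fold change was 0.03. Synemin (Synm), an intermediate filament protein that binds dystrophin, was 1071 ± 79.4 and 839 ± 16.7 CPM (SD, n = 3), and alpha-actinin-3 (Actn3) was 7594 ± 908 and 5151 ± 1067 CPM, both lower with AAV-RBM20 without overlap at log2 fold changes of -0.35 and -0.56. DESeq2 with the block called both (adjusted p = 0.036 and 0.013), and it called alpha-actinin-2 (Actn2) as higher (adjusted p = 0.0061), although the groups overlapped for that gene. Among 14 membrane repair and caveola genes 0 passed in edgeR or DESeq2, 2 had an unadjusted p under 0.05, and the median was 0.01. Ahnak, annexin A5 (Anxa5), caveolin-1 (Cav1) and Cavin4 did not overlap, at log2 fold changes of 0.29, 0.32, 0.17 and -0.32.

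Genes linked to regenerating or denervated fibres had a median log2 fold change of 0.49. Of 11 listed genes 10 were tested. The edgeR test called 0 without the block, where 5 higher and 1 lower had an unadjusted p under 0.05, and 1 with it. DESeq2 called 3, and 4 with the block. Runx1, a transcription factor raised on denervation, was 4.77, 6.01 and 5.95 CPM with AAV-GFP and 13.8, 12.4 and 13.5 CPM with AAV-RBM20, at a log2 fold change of 1.25 ± 0.15 (SE; edgeR, adjusted p = 0.26; 0.027 with the block). Perinatal myosin (Myh8) was 1.87, 1.82 and 0.874 CPM with AAV-GFP and 10.4, 3.98 and 3.81 CPM with AAV-RBM20. Its AAV-RBM20 mean rested largely on replicate 1, though replicates 2 and 3 also lay above each AAV-GFP library. The log2 fold change of Myh8 was 2.00 (edgeR, adjusted p = 0.62, and 0.060 with the block). In DESeq2 its adjusted p was 0.0038. The neural cell adhesion gene Ncam1 was 6.02 ± 0.757 and 9.82 ± 1.66 CPM (SD, n = 3), without overlap. The gene lower with AAV-RBM20 was Myod1, a myogenic transcription factor named here after its values were seen, at 39.7 ± 0.724 and 31.7 ± 1.05 CPM without overlap (log2 fold change -0.32; edgeR, adjusted p = 0.62). Myog, another myogenic factor of the list, was higher without overlap, at 1.98 ± 0.164 and 2.88 ± 0.305 CPM (SD, n = 3). Its log2 fold change was 0.54 (edgeR, adjusted p = 0.62), and Myog too was named after its values were seen. Utrophin is often raised in regenerating fibres, and the Utrn values above overlapped between the groups.

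Markers of other cells were checked as well. Summed levels overlapped between groups for satellite cells (36.1 to 42.4 CPM with AAV-GFP, 31.4 to 41.6 CPM with AAV-RBM20), Schwann cells (25.9 to 61.2 CPM and 36.2 to 53.1 CPM), smooth muscle and pericytes (626 to 630 CPM and 595 to 645 CPM) and adipocytes (15.4 to 26.9 CPM and 16.1 to 22.6 CPM). The edgeR test called 0 genes of these lists with or without the block, where 1 and 3 had an unadjusted p under 0.05, and DESeq2 with the block called 1, Cdh15. The satellite cell marker Cdh15 and the macrophage marker Itgam did not overlap between groups, with differences of -0.49 and 1.68 on the log2 scale. Ctss and Ccr2, also macrophage genes, had an adjusted p of 0.025 in edgeR with the block, while DESeq2 with the block called 6 of the 12 macrophage markers.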

How the data were processed

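Libraries were stranded and depleted of ribosomal RNA. The authors mapped reads to mm10 with HISAT2 and made raw gene counts with HTSeq. Versions, annotation release and strand setting are not given in the sources used here. A second deposited table holds a signal, the counts divided by a DESeq2 size factor per library, and was used only for within-library ratios. The members and lists were chosen with earlier results of these data known. Groups and replicate numbers came from the titles. The labels do not say that samples were separate animals, so p-values measure the spread between these samples. The study's protein blots include mice whose left and right legs received different vectors. Whether the RNA-seq samples include such legs is not given. Replicates of a group differed by a chi-square per degree of freedom of 15.1 to 545, so none was counted as a copy.

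The counts were tested with edgeR 4.0.16 (filterByExpr, TMM, robust quasi-likelihood fit) in R 4.3.3, with Benjamini-Hochberg adjustment over 17222 genes and a threshold of 0.05. CPM used TMM library sizes. Alternatives were DESeq2 1.42.0, limma-voom (limma 3.58.1), a replicate block, other scalings and filters, removal of the length trend, and left-out libraries. Deviations of log2 CPM from group means correlated across genes at 0.42, 0.20 and 0.48 between same-numbered libraries and at -0.42 to 0.22 between others. All same-numbered values exceeded 0.1, but AAV-GFP replicate 2 correlated slightly more with AAV-RBM20 replicate 1 (0.22) than with AAV-RBM20 replicate 2 (0.20). The main fit was unpaired. Pairing by number was used for the replicate block, the same-numbered pairs and the fits without both libraries of a replicate. The descriptions of the AAV-RBM20 samples carry other numbers. Scripts were run on simulated data with 1 fixed spread for all genes and no replicate effect. That does not show how the tests perform on these libraries.

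Named by rule were the members, the rest of the complex, Rbm20, and from each other list up to 3 genes with the largest change among non-overlapping genes whose log2 CPM averaged 1 or more, plus any past the threshold with or without the block. Positions came from GENCODE M21 (GRCm38). Gene overlaps make counts uncertain, and 2 members share exonic bases with another gene. For Sspn, Nos1 and Nos1ap this also holds. Some listed genes that the rule named are counted in their list but are not reported here by name.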

Additional observations from a re-analysis of the deposited data

How the results depend on the processing

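No member passed an adjusted p of 0.05 under any of the 20 alternatives. Of 160 member fold changes recomputed under them, 147 kept their sign and 13 turned. With the length trend removed, the log2 fold change was -0.033 for Dmd and -0.050 for Dtna, and with the replicate block added it was -0.019 and -0.044. That of Sgcb was 0.019 with upper quartile factors and 0.00054 with a filter at 1 CPM. With libraries left out, log2 fold changes ranged from -0.11 to 0.38 for Utrn, -0.28 to 0.040 for Sgca, -0.13 to 0.06 for Sgcb and -0.22 to 0.13 for Dag1, and the log2 ratio of Utrn to Dmd ranged from -0.25 to 0.40 (0.11 with the replicate block). Sgcd stayed between -0.39 and -0.16 and Lama2 between 0.14 and 0.43, with lowest adjusted p-values of 0.059 and 0.16. Members at an unadjusted p under 0.05 numbered 2 with the replicate block, 2 in DESeq2 with it, 1 with the length trend removed as well, and 0 to 1 with libraries left out, where the 1 was Sgcd, without AAV-RBM20 replicate 3 or without both libraries of replicate 3. Genes called numbered 8 with no low-count filter, 72 in DESeq2, 25 with the replicate block, 503 in DESeq2 with it, 94 with the length trend removed and the block, and 0 to 690 with libraries left out, 690 being without both libraries of replicate 3. Genes at an unadjusted p under 0.05, 1360 at first (702 higher, 658 lower), numbered 3244 with the block, 2400 in DESeq2 with it, 3443 with the length trend removed and the block, and 343 to 3196 with libraries left out. Upper quartile factors gave 865 higher and 504 lower and moved the median of all genes to 0.05. The cause of these shifts was not tested. The replicate block changed no other call among the members. The members held 2055 counts or more per library, and the effect of depth on their calls was not tested.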
